A study of Rattus norvegicus with 16 samples.

Results

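A set of 10 genes that mark the membranes and the vessel walls of the brain were followed: Dcn, Lum, Ogn, Bmp7, Aldh1a2 and Loxl1 on the leptomeningeal side, and Acta2, Tagln, Pdgfrb and Vtn on the mural side. They were chosen by name, as every probe whose listed gene is 1 of these 10, which gave 28 probes among 16974 genes on the array. Messenger RNA was measured with one-colour Agilent arrays in old hippocampus, young hippocampus, old frontal cortex and young frontal cortex of male rats of the inbred strain LOU/C/Jall, 4 arrays per group and 16 in all. Old rats were 26 months old, and young rats were 5 months old by the sample labels and 3 months old by the design text of the series. No group carries a transgene or a drug treatment in the labels, all rats were killed under isoflurane, and both regions were dissected from both sides of the brain and frozen. Arrays are named by the letters in their titles: AF, AG, AH and AI in both old groups, Y, Z, AA and AB in both young groups. Whether 1 letter code marks 1 animal in both regions is not stated. The p-values measure the spread between these arrays, which may be technical.

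The leptomeninges, the thin arachnoid and pial membranes on the brain surface, are built by fibroblasts that secrete collagens and small leucine-rich proteoglycans, supply retinoic acid and release bone morphogenetic proteins. Mural cells wrap the vessels inside the tissue and on its surface: smooth muscle cells contract arteries and arterioles, and pericytes lie along capillaries. Both kinds of cell are a small part of dissected brain tissue.

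All values are log2 signals of a gene's brightest probe relative to the 75th percentile of the gene probes on that array. The deposited signals are on an arbitrary scale, so levels are compared between arrays of 1 probe and never between genes. A gene was tested when its highest group mean passed an intensity minimum of -2.95 on this scale, which left 10056 genes. Of the 10 genes, 8 passed. Lum and Aldh1a2 did not, and they are described by their values alone. The number of arrays limits the precision, and the median residual SD of a gene was 0.165 log2. The region labels were checked with markers chosen after values were seen. Fibcd1, a hippocampal pyramidal cell marker, was 3.23 log2 higher in hippocampus than in frontal cortex of old rats and 3.41 log2 higher in young rats. Lamp5, a cortical neuron marker, stood at -1.65 in old rats and -1.84 in young rats for the same difference.

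**Figure D1:**
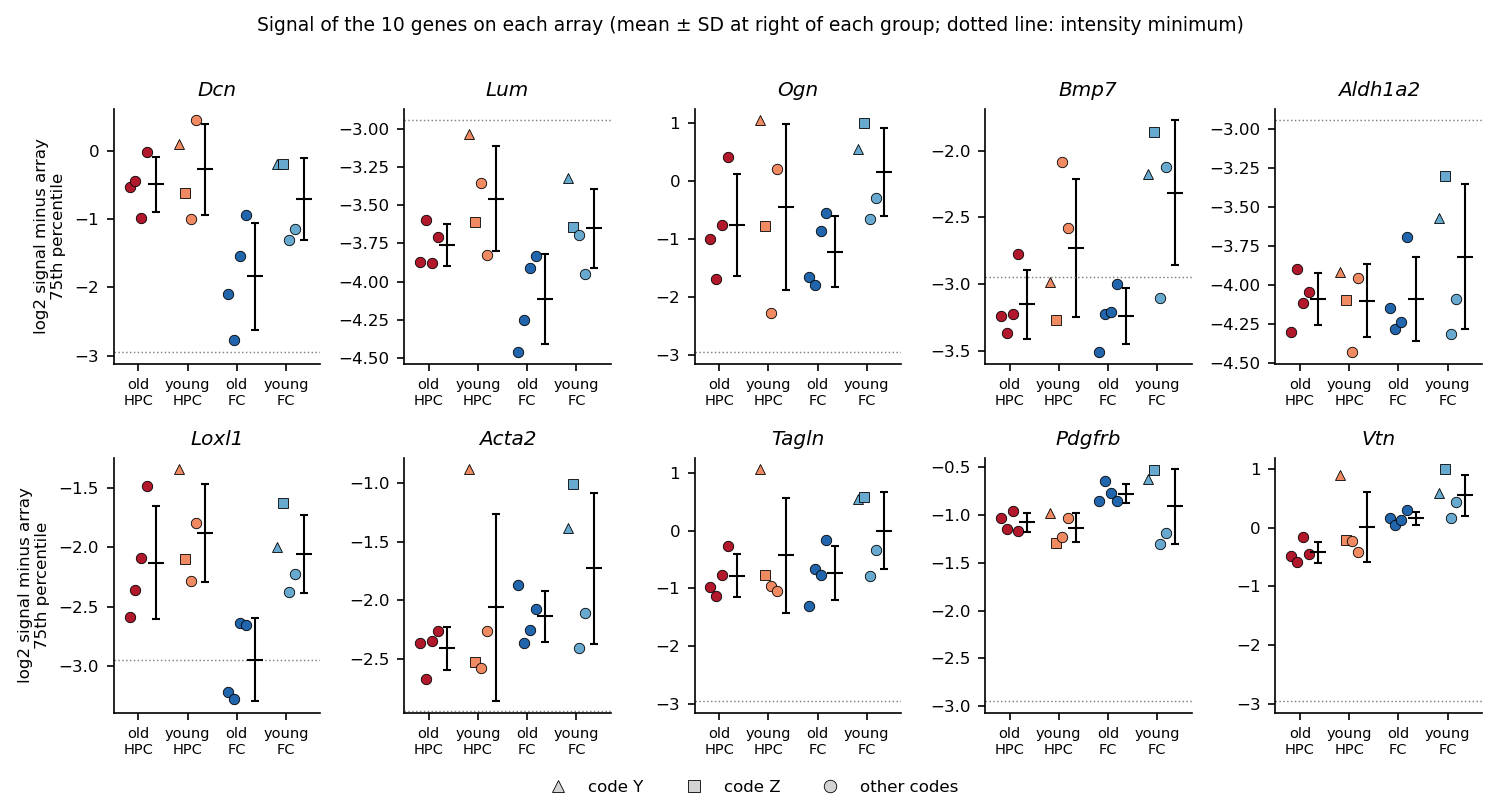
Signal of each of the 10 genes on each of the 16 arrays (y axis, log2 relative to the array's 75th percentile) in old and young hippocampus (HPC) and old and young frontal cortex (FC). Triangles are code Y, squares code Z and circles the other codes, bars at the right of a group are the mean ± SD (n = 4 arrays), and the dotted line is the intensity minimum of -2.95. Lum and Aldh1a2 lie below the line in every group mean, and young hippocampus array Y stands above the other 3 young hippocampus arrays for Tagln, Acta2 and Vtn.

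Old and young frontal cortex were compared to ask whether these genes differ with age on the cortical side. The 4 leptomeningeal genes that could be tested all had negative differences, of -1.37 (Ogn), -1.13 (Dcn), -0.92 (Bmp7) and -0.89 (Loxl1) log2, old minus young. These differences were among the 51 lowest of the 10056 genes tested, and none passed an adjusted p of 0.05 (limma, Benjamini-Hochberg over all tested genes). Of the 4 mural genes, Tagln, Acta2 and Vtn had smaller negative differences and Pdgfrb a positive one. Of all tested genes, 0.965% were called in this comparison at that threshold and 0.408% were called lower in old frontal cortex, while 0 of the 8 tested members were called in either direction. An unadjusted p under 0.05 in limma was reached by 4 of the 8 members (Dcn, Ogn, Bmp7 and Loxl1), against 22.2% of all tested genes. Bmp7 passed the intensity minimum through its young group means alone, so its place in this count is tied to the filter. In whole tissue, fewer cells of a type and less RNA per cell cannot be told apart.

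Dcn encodes decorin, a collagen-binding proteoglycan of the fibroblast matrix. Its signal was -2.10, -2.77, -1.54 and -0.94 on old frontal cortex arrays AF, AG, AH and AI, against -0.19, -0.20, -1.31 and -1.15 on young frontal cortex arrays Y, Z, AA and AB. Old array AI lay above young arrays AA and AB, so the groups overlapped, and the young group itself was split into a higher pair (Y and Z) and a lower pair (AA and AB). The difference was -1.13 ± 0.39 log2 (SE, n = 4 per group), or 2.18-fold lower, with an adjusted p of 0.118 by limma. Decorin has 10 probes on the array, more than any other gene of the set, and their differences ran from -1.22 to -1.0.

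Ogn encodes osteoglycin, also called mimecan, another small leucine-rich proteoglycan. Its signal was -1.65, -1.80, -0.87 and -0.55 on old frontal cortex arrays AF, AG, AH and AI, against 0.55, 1.00, -0.65 and -0.29 on young frontal cortex arrays Y, Z, AA and AB. Again Y and Z were the high arrays, and old AI lay between young AA and AB. The difference was the lowest of the set, -1.37 ± 0.59 log2 (SE, n = 4 per group), with an adjusted p of 0.190 by limma and the largest SE of the set.

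Bmp7 encodes a bone morphogenetic protein, a secreted ligand of the TGF-beta superfamily. It read -3.51, -3.22, -3.21 and -3.00 on old frontal cortex arrays AF, AG, AH and AI, against -2.18, -1.86, -3.10 and -2.13 on young frontal cortex arrays Y, Z, AA and AB. All 4 old arrays were under the intensity minimum, as was young array AA, while the other 3 young arrays were above it. The difference was -0.92 ± 0.26 log2 (SE, n = 4 per group), with an adjusted p of 0.0758 by limma. With the mean of its 2 probes in place of the brighter one, the difference was -0.95 and was called (adjusted p = 0.0437 by limma).

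Loxl1 encodes a lysyl oxidase-like enzyme that crosslinks elastin. It read -3.22, -3.28, -2.64 and -2.66 on old frontal cortex arrays AF, AG, AH and AI, against -2.0, -1.62, -2.38 and -2.22 on young frontal cortex arrays Y, Z, AA and AB. By the brighter probes, this was the only tested member whose old and young frontal cortex arrays did not overlap. That held, in the same direction, for 6.01% of all tested genes. The difference was -0.89 ± 0.25 log2 (SE, n = 4 per group), or 1.85-fold lower, with an adjusted p of 0.0758 by limma. The other probe of Loxl1 gave -0.77. On that probe old array AI, at -2.31, lay above young array AB, at -2.35, so the groups overlapped.

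The 2 leptomeningeal genes under the intensity minimum were close to the background spots. On the deposited log2 scale the brighter probe of Lum, which encodes the proteoglycan lumican, averaged 5.69, and that of Aldh1a2, the enzyme that makes retinoic acid, averaged 5.41. The 308 negative control spots averaged 4.99, and the highest of them 5.51. Lum read -4.46, -4.25, -3.91 and -3.83 on old frontal cortex arrays AF, AG, AH and AI, and -3.32, -3.64, -3.69 and -3.95 on young frontal cortex arrays Y, Z, AA and AB. Aldh1a2 read -4.14, -4.28, -4.24 and -3.69 on the old arrays, and -3.57, -3.30, -4.31 and -4.09 on the young arrays in the same order. Both genes overlapped between the ages. In a fit with no minimum the differences were -0.46 ± 0.17 for Lum and -0.27 ± 0.20 log2 for Aldh1a2 (SE, n = 4 per group), and the adjusted p was 0.221 and 0.549 by limma. Dcn and Lum, which lie next to each other in the genome with 0 listed genes between them, both had their lowest group mean in old frontal cortex.

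On the mural side, Acta2 encodes smooth muscle alpha-actin, the actin of contractile filaments, and it is a textbook target of serum response factor, which binds CArG boxes. A CArG box is CC and GG around a run of A and T bases, 10 letters in all, and it reads the same way on both strands. Its promoter is shown because Acta2, Tagln and Vtn shared their high arrays, below. In RefSeq (GRCr8) 6 of the 10 members have a listed promoter of 300 bases, 250 before and 50 after the start: Acta2, Aldh1a2, Loxl1, Lum, Ogn and Vtn. No exact CArG box was found in these 6, against 1.64% of all 33469 listed promoters, so matches with at most 1 other base in the inner run were searched next. Those occur in 9.42% of all promoters, in 2 of 19 listed promoters of the smooth muscle list and in 1 of the 6 members. In the meningeal fibroblast list they occur in 6 of 33 listed promoters, and 2 of these 33 hold an exact box, against 0 of the 19. A link between such matches and the array signals was not tested. Among the members the match is in Acta2, at chr1:241172454-241172753 on the minus strand, with 2 matches, in capitals, that begin 134 and 84 bases before the start.
Acta2 promoter: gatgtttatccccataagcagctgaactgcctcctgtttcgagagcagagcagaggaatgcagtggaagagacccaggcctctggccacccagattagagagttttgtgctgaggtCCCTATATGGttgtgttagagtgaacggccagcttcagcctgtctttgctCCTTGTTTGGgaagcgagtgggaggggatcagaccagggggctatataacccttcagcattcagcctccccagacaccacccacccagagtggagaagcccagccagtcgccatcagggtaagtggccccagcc

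Acta2 read -1.87, -2.36, -2.25 and -2.07 on old frontal cortex arrays AF, AG, AH and AI, against -1.39, -1.01, -2.41 and -2.11 on young frontal cortex arrays Y, Z, AA and AB. Young Y and Z were above every old array, and young AA was below every one. Tagln, which encodes the actin-binding protein transgelin of smooth muscle, read -1.30, -0.67, -0.77 and -0.17 on the old arrays and 0.54, 0.58, -0.78 and -0.33 on the young arrays in the same order. Its difference was -0.73 ± 0.41 log2 (SE, n = 4 per group, adjusted p = 0.314 by limma), and that of Acta2 was -0.41 ± 0.33 (adjusted p = 0.481). Young Y and Z were the high arrays here too.

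Vtn, which encodes vitronectin, an adhesive glycoprotein made in the brain by pericytes, read 0.16, 0.05, 0.13 and 0.29 on old frontal cortex arrays AF, AG, AH and AI, against 0.60, 0.99, 0.17 and 0.44 on young frontal cortex arrays Y, Z, AA and AB. Its difference was -0.39 ± 0.23 log2 (SE, n = 4 per group, adjusted p = 0.321 by limma). Pdgfrb, the receptor by which pericytes sense platelet-derived growth factor, read -0.85, -0.64, -0.77 and -0.86 on the old arrays and -0.62, -0.53, -1.30 and -1.19 on the young arrays in the same order. The old arrays of Pdgfrb lay close together and inside the range of the young arrays, which were again split into Y and Z above and AA and AB below. The difference was 0.13 ± 0.15 log2 (SE, n = 4 per group, adjusted p = 0.624 by limma), and its other probe gave -0.02.

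Leaving out young frontal cortex arrays Y and Z moved most of these values. Without them, the differences were -0.74 for Ogn, -0.65 for Loxl1, -0.62 for Bmp7, -0.61 for Dcn, -0.17 for Tagln, -0.14 for Vtn, 0.12 for Acta2 and 0.46 for Pdgfrb, and the adjusted p ran from 0.0910 (Pdgfrb) to 0.886 (Acta2). The median over the 8 members was -0.81 with all arrays and -0.39 without Y and Z, beside a median of 0.0010 over all tested genes with all arrays. In the other direction, without old frontal cortex array AI, 3 members were called lower: Dcn (-1.42, adjusted p = 0.0389), Loxl1 (-0.99, adjusted p = 0.0410) and Bmp7 (-1.0, adjusted p = 0.0456, all by limma). Without old hippocampus arrays AH and AI, which belong to neither frontal cortex group, Loxl1 alone was called (adjusted p = 0.0482).

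**Figure D2:**
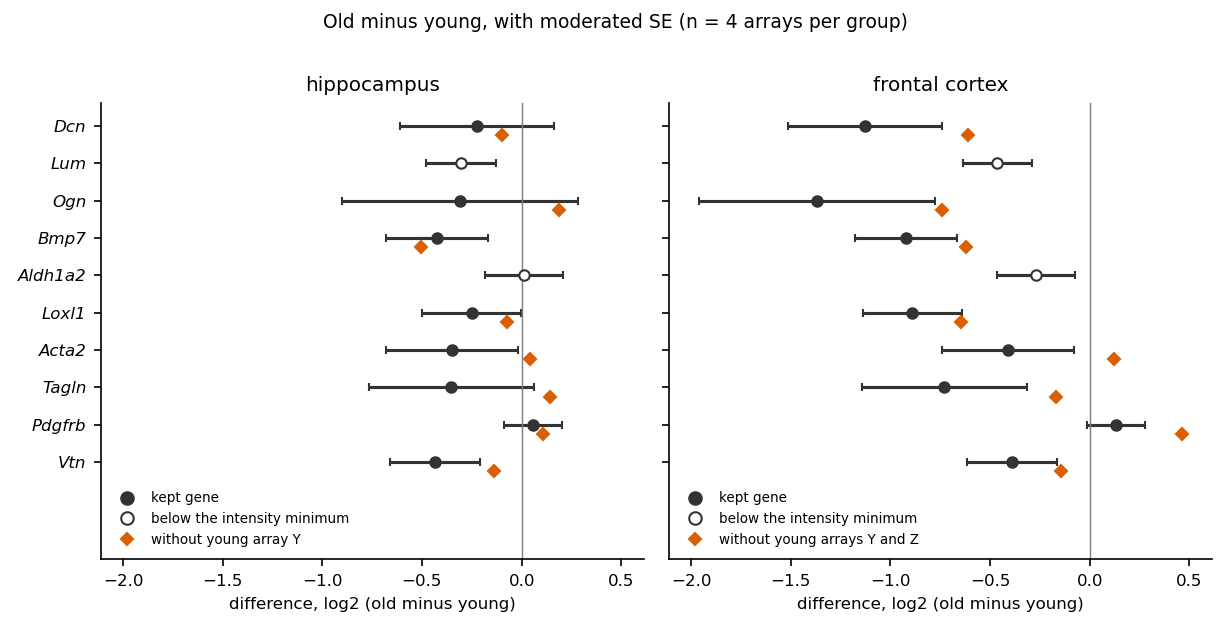
Difference of each gene with age in hippocampus and in frontal cortex (x axis, log2, old minus young; bars are the moderated SE, n = 4 arrays per group). Filled points are tested genes, open points are Lum and Aldh1a2 from the fit with no minimum, and diamonds leave out young array Y in hippocampus or young arrays Y and Z in frontal cortex. The 4 leptomeningeal genes tested sit between -1.37 and -0.89 in frontal cortex, and between -0.42 and -0.22 in hippocampus.

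The same arrays stood apart for the wider marker lists, into which the members also count. Each list is summarised here by its mean on an array, every gene centred over the 16 arrays. The meningeal fibroblast list (29 tested genes of 50 listed) was 0.69 on young frontal cortex array Y and 0.92 on Z, against -0.03 on AA and 0.04 on AB, and it ran from -0.59 to 0.02 in old frontal cortex. The smooth muscle list (20 tested of 25) was 0.57 on young array Y and 0.66 on Z, against -0.18 on AA and 0.03 on AB, and it ran from -0.19 to 0.09 in old frontal cortex. Within frontal cortex, young Y and Z were thus the highest arrays for both lists.

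Other tissue markers moved with that split. The myelin list (9 tested genes) was -0.69 on young frontal cortex array Y and -0.75 on Z, against -0.13 on AA and -0.06 on AB, and it ran from -0.12 to 0.60 in old frontal cortex. The striatal list (9 tested genes) was -0.38 on young array Y and -0.37 on Z, against 1.19 on AA and 1.20 on AB, and it ran from 0.26 to 1.89 in old frontal cortex. The frontal cortex arrays highest for meningeal and smooth muscle genes were thus the lowest of their region for myelin and striatal genes. The endothelial list (19 tested genes) differed less, from 0.07 to 0.24 in old frontal cortex and from -0.04 to 0.23 in young frontal cortex. The part of these marker differences in the age values was not tested.

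**Figure D3:**
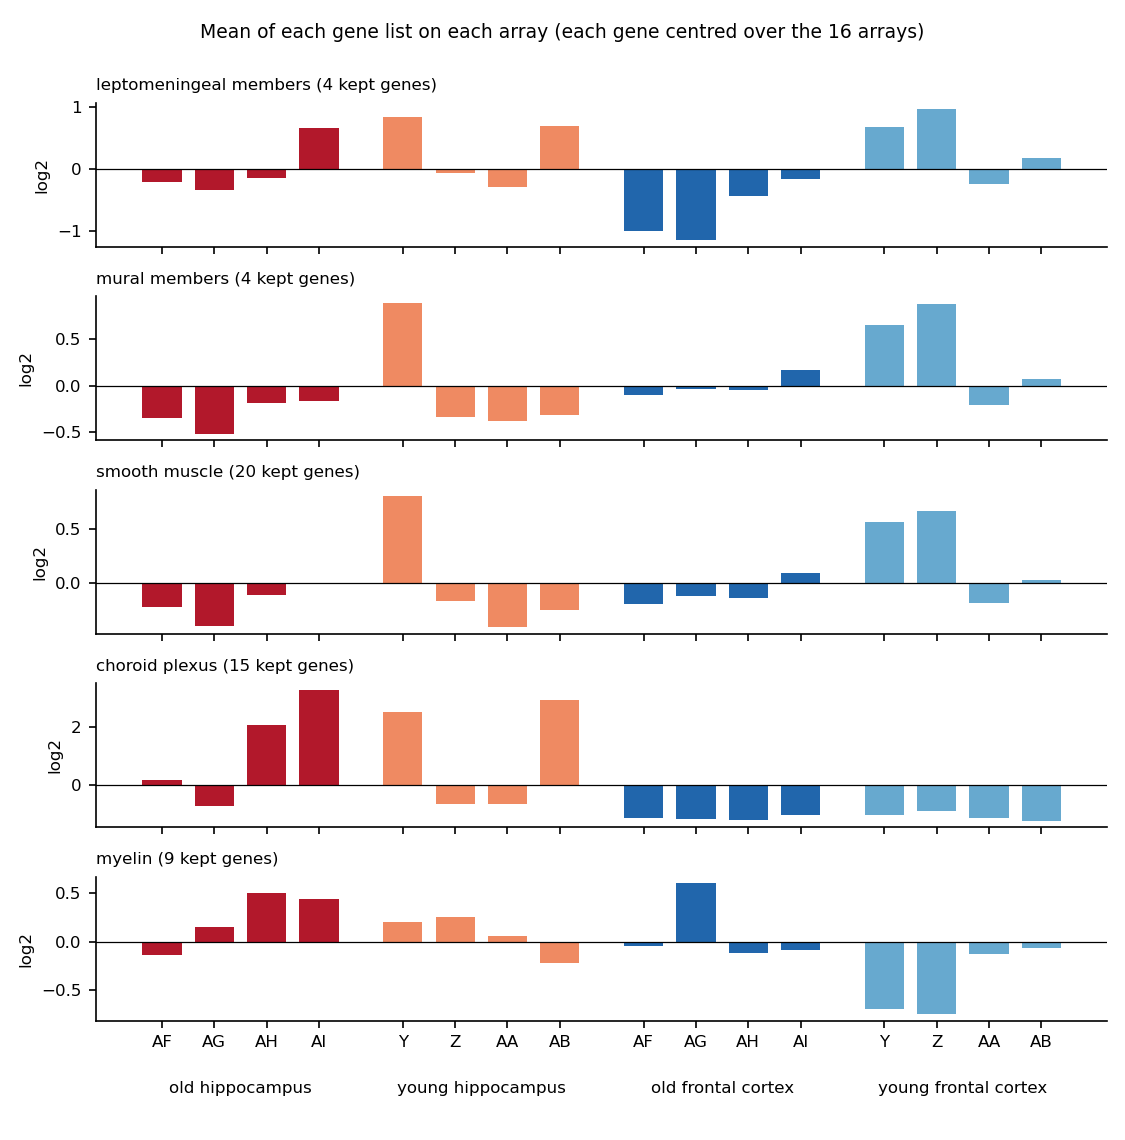
Mean of 5 gene lists on each of the 16 arrays (bars, log2, every gene centred over the 16 arrays), for the 4 tested leptomeningeal members, the 4 mural members, and the smooth muscle, choroid plexus and myelin lists. Young frontal cortex arrays Y and Z are high for the top 3 lists and low for myelin, and the choroid plexus list is high on 4 hippocampus arrays, from 2.06 to 3.27.

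The gene lists around the members, into which the members also count, gave 0 called genes in frontal cortex with age. Dcn, Ogn and Bmp7 are in the meningeal fibroblast list, Dcn and Ogn in the small leucine-rich proteoglycan list and Bmp7 in the BMP list. The counts of these lists thus repeat the members' values in part. The lists were written with earlier results of these data known, so their counts describe and do not test. An unadjusted p under 0.05 in limma was reached by 12 of 29 meningeal fibroblast genes, 3 of 6 small leucine-rich proteoglycans, 2 of 20 smooth muscle genes, 3 of 16 pericyte genes, 5 of 13 elastic fibre genes, 5 of 26 BMP pathway genes and 1 of 14 retinoic acid genes, against 22.2% of all tested genes. The 12 include Bmp7, Foxc2 and Spp1, the 3 proteoglycans include Omd, and Bmp7 is in the BMP count too. Each of these genes was under the intensity minimum on every old frontal cortex array, so its place in the counts is tied to the filter. Of the meningeal fibroblast genes 26 of 29 had a negative difference (median -0.76), against 49.8% of all tested genes. Foxc2, a transcription factor of mesenchyme, stood at -1.08 ± 0.27 log2 (adjusted p = 0.0654) and the gap junction subunit Gjb2 at -1.18 ± 0.41 (adjusted p = 0.121, limma, n = 4 per group). Foxc2 was above the intensity minimum on young frontal cortex arrays Y and Z alone within that region, at -2.23 and -2.10, and all its old frontal cortex arrays were under it. The secreted phosphoprotein Spp1 passed the filter through 1 array, young frontal cortex AA at -1.70, and was under the minimum on the other 15, so no difference is given for it. All 6 tested small leucine-rich proteoglycans were negative (median -0.74), with Omd, osteomodulin, at -0.66, Bgn, biglycan, at -0.53 and Fmod, fibromodulin, at -0.82. Omd passed the filter through the young groups alone. Smooth muscle genes were negative in 18 of 20 (median -0.34), with the amine oxidase Aoc3 at -0.90, the myosin light chain Myl9 at -0.65 and Pln, phospholamban, at -0.65. Over these 6 named genes the adjusted p ran from 0.165 (Omd) to 0.394 (Fmod) by limma.

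The medians of the pericyte and pathway lists were closer to that of all tested genes (0.0010) than the medians above. Of all tested genes 49.8% were negative. By counts the elastic fibre list was not close, with 5 of 13 genes at an unadjusted p under 0.05 in limma, against 22.2% of all tested genes. Of 16 tested pericyte genes 10 were negative in frontal cortex (median -0.06): Rgs5, a regulator of G protein signalling, stood at -0.43, while the cytochrome oxidase subunit Cox4i2 was at 0.23 and Higd1b at 0.24. Of 13 elastic fibre and crosslinking genes 10 were negative (median -0.20), with Fbln1, fibulin 1, at -0.59 and the microfibril proteins Mfap5 at -0.92 and Mfap4 at -0.52. The BMP pathway had 13 of 26 negative (median -0.02), with the receptors Bmpr1a at -0.30 and Bmpr2 at -0.29 and Chrd, the BMP antagonist chordin, at 0.40. The retinoic acid list had 9 of 14 negative (median -0.17), with the retinaldehyde dehydrogenase Aldh1a1 at -0.25, the fatty acid binding protein Fabp5 at -0.24 and Crabp2, a retinoic acid binding protein, at -0.82. Beside Pdgfrb, only the ligand Pdgfa (0.18) and the receptor Pdgfra (-0.15) of the PDGF list could be tested. None of these passed, with adjusted p from 0.112 (Fbln1) to 0.418 (Pdgfra) by limma.

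Old and young hippocampus were compared in the same way. Of the 8 tested members 7 again had negative values, from -0.43 (Vtn) to -0.22 (Dcn) log2, against 47.1% of all tested genes with a negative difference, and Pdgfrb stood at 0.06. None was called, where 0.0398% of all tested genes were, and 0 of 8 had an unadjusted p under 0.05 in limma, against 6.77% of all tested genes. The adjusted p ran from 0.760 (Vtn) to 0.957 (Pdgfrb) by limma. The old and young hippocampus arrays overlapped for every tested member, while 1.88% of all tested genes had all old hippocampus arrays below all young ones. The median over the members was -0.33, beside 0.010 over all tested genes.

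Here the spread of the young group came from 1 array for the mural genes. Tagln read -0.97, -1.12, -0.77 and -0.26 on old hippocampus arrays AF, AG, AH and AI, against 1.06, -0.77, -0.96 and -1.04 on young hippocampus arrays Y, Z, AA and AB. Acta2 read -2.36, -2.67, -2.35 and -2.26 on the old arrays and -0.88, -2.53, -2.57 and -2.26 on the young arrays, and Vtn -0.48, -0.59, -0.16 and -0.45 on the old and 0.89, -0.21, -0.22 and -0.41 on the young arrays, in the same order. In all 3 genes young array Y was above the other 7 hippocampus arrays. Pdgfrb did not share this: it read -1.03, -1.15, -0.96 and -1.17 on the old arrays and -0.98, -1.30, -1.23 and -1.03 on the young arrays.

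Without young hippocampus array Y the differences of Tagln, Acta2 and Ogn turned positive, at 0.14, 0.04 and 0.19 log2, and that of Vtn was -0.14. The second probe of Vtn gave 0.04 with all arrays, and on that probe young hippocampus array AA read -2.45, with the other 3 young arrays between -0.43 and 0.66 and the old arrays between -0.77 and -0.51. The difference of Vtn with the brighter probe was -0.43 ± 0.23 log2 (SE, n = 4 per group). The smooth muscle list mean was 0.80 on young hippocampus array Y, against -0.40 to -0.17 on the other 3 young arrays and -0.39 to 0.00 in old hippocampus. Its part in the member values was not tested.

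Among leptomeningeal genes, hippocampus arrays followed a different split. Dcn read -0.54, -0.44, -0.98 and -0.02 on old hippocampus arrays AF, AG, AH and AI, against 0.10, -0.63, -1.01 and 0.44 on young hippocampus arrays Y, Z, AA and AB. Ogn read -1.0, -1.68, -0.76 and 0.41 on the old arrays and 1.04, -0.78, -2.27 and 0.21 on the young arrays in the same order. For both genes old AI and young Y and AB were the high arrays. Those arrays were also 3 of the 4 with a high choroid plexus list, the epithelium that secretes cerebrospinal fluid: its mean was 3.27 on old AI and 2.06 on old AH, with 2.50 on young Y and 2.93 on young AB, against -0.74 to 0.16 on the other 4 hippocampus arrays. Of its 18 listed genes 15 were tested, and in frontal cortex the list lay between -1.21 and -1.03 in old arrays and between -1.23 and -0.90 in young arrays. Its part in the signals of Dcn and Ogn was not tested.

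Loxl1 and Bmp7 were closer together in hippocampus. Loxl1 read -2.59, -2.36, -2.09 and -1.49 on old hippocampus arrays AF, AG, AH and AI, against -1.34, -2.10, -2.28 and -1.80 on young hippocampus arrays Y, Z, AA and AB. Bmp7 read -3.24, -3.37, -3.22 and -2.78 on the old arrays and -2.98, -3.27, -2.08 and -2.58 on the young arrays in the same order, so that 3 old and 2 young arrays were under the intensity minimum. Bmp7 was thus above the minimum as a group mean in both young groups and below it in both old groups. Its hippocampal difference was -0.42 ± 0.26 log2 (SE, n = 4 per group, adjusted p = 0.790 by limma), and its other probe gave -0.12. Young hippocampus array AA was the highest of the 8 hippocampus arrays on the brighter probe, at -2.08, and the lowest on the other, at -3.67. Lum lay between -3.88 and -3.59 in old hippocampus and between -3.83 and -3.04 in young hippocampus. Aldh1a2 lay between -4.30 and -3.90 in old and between -4.43 and -3.92 in young hippocampus.

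The wider lists in hippocampus had 0 called genes as well, with an unadjusted p under 0.05 in limma in 2 of 29 meningeal fibroblast, 0 of 20 smooth muscle and 2 of 16 pericyte genes, against 6.77% of all tested genes. Negative differences were found in 21 of 29 meningeal fibroblast genes (median -0.20), 16 of 20 smooth muscle genes (median -0.20), 10 of 16 pericyte genes (median -0.04) and 6 of 6 small leucine-rich proteoglycans (median -0.17), against 47.1% of all tested genes. The complement inhibitor Serping1 stood at 0.95 ± 0.28 log2 (adjusted p = 0.472 by limma, SE, n = 4 per group). Rgs5 had values close to each other in both regions, -0.38 in hippocampus and -0.43 in frontal cortex, and was called in neither (adjusted p = 0.675 and 0.127).

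Whether age acted on the members differently in the 2 regions was tested as the difference of the age effects, frontal cortex minus hippocampus. It was -1.06 ± 0.84 for Ogn, -0.90 ± 0.55 for Dcn, -0.64 ± 0.35 for Loxl1 and -0.50 ± 0.36 log2 for Bmp7 (SE, n = 4 arrays per group). For the mural genes it was -0.38 ± 0.59 for Tagln, -0.06 ± 0.47 for Acta2, 0.04 ± 0.32 for Vtn and 0.07 ± 0.21 for Pdgfrb. No member was called, and 0% of all tested genes were, while 266 genes (2.65%) and 0 of 8 members had an unadjusted p under 0.05 in limma. The larger age values of the leptomeningeal genes in frontal cortex were thus not shown to differ from those in hippocampus.

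Hippocampus and frontal cortex were then compared within old rats, a comparison that shares the old frontal cortex arrays with the age comparison above. Dcn was 2.54-fold higher in old hippocampus than in old frontal cortex, a difference of 1.34 ± 0.39 log2 with an adjusted p of 0.0231 by limma (SE, n = 4 per group). Loxl1 was 1.76-fold higher there, at 0.82 ± 0.25 log2 with an adjusted p of 0.0304. With 2 of 8 members called against 18.7% of all tested genes called, and 9.65% of all tested genes called in this direction, the count is near that of genes at large. Dcn averaged -0.49 ± 0.40 in old hippocampus and -1.84 ± 0.78 in old frontal cortex (SD, n = 4 arrays each), and its arrays overlapped because old frontal cortex AI, at -0.94, lay above old hippocampus AH, at -0.98. Loxl1 averaged -2.13 ± 0.48 in old hippocampus and -2.95 ± 0.35 in old frontal cortex, without overlap, which held in this direction for 8.95% of all tested genes. The other probe of Loxl1 gave a difference of 0.69, and its arrays overlapped. In a limma fit of every probe its adjusted p was 0.139, and that of the brighter probe was 0.0481.

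Both calls were sensitive to single arrays, and with each of the 16 arrays left out in turn, each call held 12 times. The adjusted p of Dcn was 0.0504 without old hippocampus array AG, 0.0687 without AI, 0.0587 without old frontal cortex array AF and 0.0796 without AG. For Loxl1 it was 0.0625 without old hippocampus array AH, 0.0998 without AI, 0.0816 without old frontal cortex array AF and 0.0904 without AG. Old hippocampus AH and AI held the high choroid plexus signal. Without both, the difference was 1.35 (adjusted p = 0.0812) for Dcn and 0.47 (adjusted p = 0.278) for Loxl1.

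**Figure D4:**
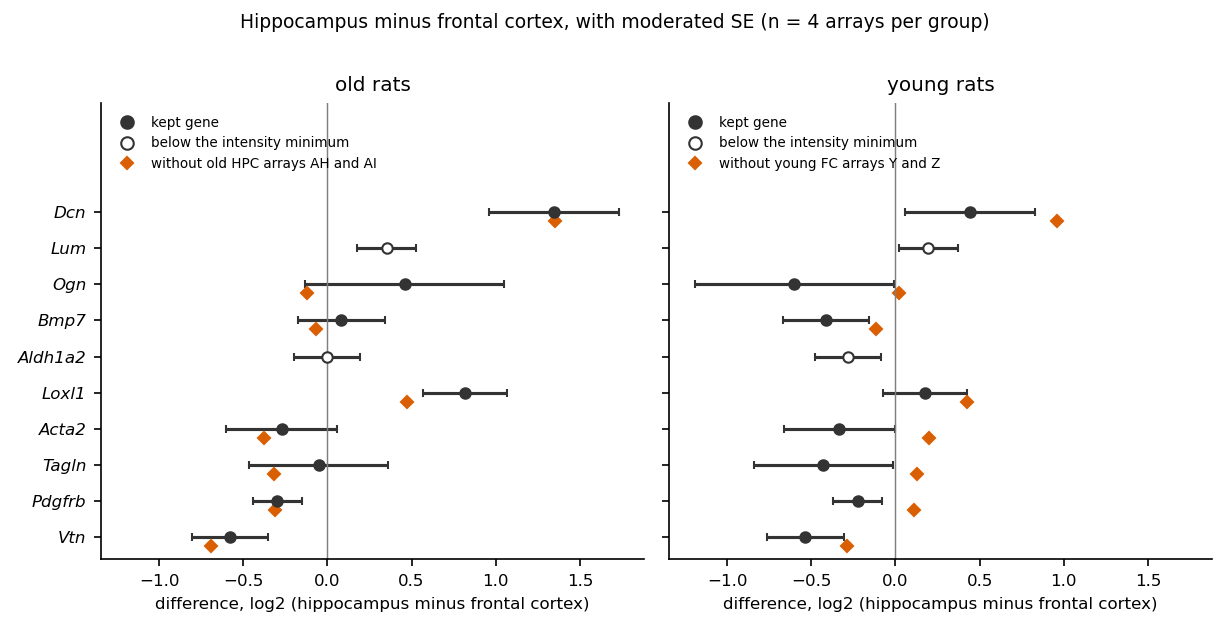
Difference of each gene between regions in old rats and in young rats (x axis, log2, hippocampus minus frontal cortex; bars are the moderated SE, n = 4 arrays per group). Open points are Lum and Aldh1a2 from the fit with no minimum, and diamonds leave out old hippocampus arrays AH and AI in old rats or young frontal cortex arrays Y and Z in young rats. Dcn (1.34) and Loxl1 (0.82) lie to the right in old rats, and the 4 mural genes lie left of 0 in both ages with all arrays.

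The mural genes had negative differences between regions in old rats, and none was called with all arrays. Other vessel genes did too: 14 of 16 pericyte genes (median -0.33, members included) and 18 of 19 endothelial genes (median -0.24) were negative. The median over all tested genes was 0.012, so the direction is not particular to the mural members. Vtn stood at -0.58 ± 0.23 log2 (adjusted p = 0.0891) and Pdgfrb at -0.30 ± 0.15 (adjusted p = 0.172; limma, SE, n = 4 per group), and in both genes all old hippocampus arrays lay below all old frontal cortex arrays, as in 8.32% of all tested genes. Acta2 stood at -0.27 ± 0.33 and Tagln at -0.05 ± 0.41, with 0.02 on the other probe of Tagln. Pdgfrb averaged -1.08 ± 0.10 in old hippocampus and -0.78 ± 0.10 in old frontal cortex (SD, n = 4 arrays each), the tightest groups of the set, and the 2 groups of Vtn averaged -0.42 ± 0.18 and 0.16 ± 0.10 in the same order. With the 8 old arrays fitted alone, Vtn was called lower in hippocampus (adjusted p = 0.00956 by limma) and Loxl1 was no longer called (adjusted p = 0.0582). Vtn was also called without young hippocampus array Y (adjusted p = 0.0111), and Pdgfrb without young frontal cortex arrays Y and Z (adjusted p = 0.0430). Those young arrays belong to neither old group, so leaving them out changed the shared estimate of the spread and not the difference.

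In young rats no member was called between regions, where 13.8% of all tested genes were, and 1 of 8 (Vtn) had an unadjusted p under 0.05 in limma, against 25.1% of all tested genes. The difference of Vtn was -0.53 ± 0.23 log2, with 0.01 ± 0.59 in young hippocampus and 0.55 ± 0.35 in young frontal cortex (SD, n = 4 arrays each) and an adjusted p of 0.146 by limma. Without young hippocampus array Y, the high array of its group, the difference was -0.83 (adjusted p = 0.00187). Of the 16 fits that left out 1 array, this was the only 1 that called Vtn, and the adjusted p reached 0.381 in another. The other values were 0.44 for Dcn, 0.18 for Loxl1, -0.22 for Pdgfrb, -0.33 for Acta2, -0.41 for Bmp7, -0.43 for Tagln and -0.60 for Ogn. Without young frontal cortex arrays Y and Z those of Tagln, Acta2, Pdgfrb and Ogn were positive, at 0.13, 0.20, 0.11 and 0.02.

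Over the 4 groups, the order of levels differed between genes, also within each of the 2 kinds. Dcn was highest in young hippocampus, followed by old hippocampus, young frontal cortex and old frontal cortex, and Loxl1 was highest in young hippocampus, followed by young frontal cortex, old hippocampus and old frontal cortex. Ogn and Bmp7 were highest in young frontal cortex and lowest in old frontal cortex. Old frontal cortex held the lowest mean in each of these 4 genes and in Lum. Aldh1a2, like Lum under the minimum, was highest in young frontal cortex. Its lowest mean was in young hippocampus, at -4.10, next to old frontal cortex at -4.09. Acta2, Tagln and Vtn were also highest in young frontal cortex, but lowest in old hippocampus, and Pdgfrb was highest in old frontal cortex. Neighbours in these orders overlapped in every gene, except old hippocampus over old frontal cortex in Loxl1 on its brighter probe.

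The members of a kind varied together over the 16 arrays, described here by Pearson's r with no test, since arrays of a group share region and age. Against the mean of the 4 tested leptomeningeal members, which contains the gene itself, r was 0.94 for Loxl1, 0.90 for Ogn, 0.89 for Dcn and 0.63 for Bmp7. Against the mean of the 4 mural members r was 0.96 for Acta2, 0.93 for Tagln, 0.93 for Vtn and 0.63 for Pdgfrb. After each gene was centred within its group, these values were 0.92, 0.93, 0.90 and 0.43 for the leptomeningeal genes and 0.96, 0.95, 0.94 and 0.71 for the mural genes, in the same orders. Bmp7 and Pdgfrb were thus the members least like their own kind. Across kinds, r with the leptomeningeal mean was 0.70 for Tagln, 0.59 for Acta2, 0.36 for Vtn and 0.03 for Pdgfrb. With the mural mean it was 0.73 for Ogn, 0.46 for Bmp7, 0.40 for Loxl1 and 0.23 for Dcn. After centring within groups, the first ran from 0.52 (Pdgfrb) to 0.73 (Tagln) and the second from 0.24 (Bmp7) to 0.75 (Ogn). The 2 kinds thus did not vary separately.

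Among the other tested genes, those most like the leptomeningeal mean over the 16 arrays were the glutathione transferase Gstm2 (r = 0.94), the membrane metalloprotease Mmp14 (0.92), Fcmr (0.90), the cyclophilin Ppic (0.89), the collagen Col12a1 (0.87), the microfibril protein Mfap4 (0.87), Fcgrt (0.86), the cadherin Cdh1 (0.86), Omd (0.86) and Dab2 (0.86). Most like the mural mean were the smooth muscle filament and contraction genes Des (0.97), Myh11 (0.97), Pln (0.96) and Tpm2 (0.96), then Emp3 (0.95), Actg2 (0.95), the filamin Flna (0.93), the fibrillar collagens Col1a1 (0.92) and Col3a1 (0.92) and elastin, Eln (0.91). None of these 20 genes was called with age in either region, and an unadjusted p under 0.05 in limma was reached by 0 of 20 in hippocampus (6.77% of all tested genes) and 9 of 20 in frontal cortex (22.2% of all tested genes). They were picked for following the members over the same 16 arrays, so their age values are not independent of the members' values. Of the 9, Cdh1 passed the filter through young frontal cortex alone and Omd through the young groups alone. Their place in that count is thus tied to the filter. In frontal cortex their differences ran from -1.44 (Col3a1) to -0.20 (Eln), with Gstm2 at -1.02 ± 0.34 log2 and Ppic at -0.82 ± 0.23 (SE, n = 4 per group, adjusted p = 0.109 and 0.0772 by limma).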

How the data were processed

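RNA of the 16 samples was labelled with Cy3 for one-colour arrays, and Agilent Feature Extraction was the authors' image software, per the submitters' processing notes. The values are log2 signals as deposited by the authors in the series value table, 4.94 to 17.8, with equal quartiles on every array. How they were background-corrected and normalized is not given in these sources. The raw table's 16 signal columns match no sample by name and served for spot names only.

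Probes with a listed gene numbered 45904 of 62976 spots, 39795 of them with a symbol updated through RefSeq (GRCr8) accessions and 6109 with the array's own. Every array was shifted by the 75th percentile of its gene probes (9.42 to 9.44), and the probe with the highest mean stood for a gene. The minimum for a gene's highest group mean was the 40th percentile of probe means. limma 3.58.1 in R 4.3.3 fitted 4 group means on all arrays (12 residual, 4.07 prior degrees of freedom). Two-sided moderated p-values of each of 5 comparisons received the Benjamini-Hochberg adjustment over 10056 genes, and called genes have an adjusted p under 0.05.

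The members, the 18 gene lists and most alternatives were chosen with earlier results of these data known. Leaving out old hippocampus arrays AH and AI together, the region markers and the looser CArG search were added after seeing the values. Named genes are the members, the called genes and up to 3 of smallest p of each list per age comparison, and the 10 most correlated with each kind of member. On simulated data with 100 changed genes per size among 10056, 55% of changes of 0.5 log2 and 93% of 1 log2 were called in hippocampus (11 false among 159 calls), and 56% and 93% in frontal cortex (7 false among 156). The changed genes were drawn at random, with a median residual SD of 0.165 log2 over the tested genes. The pooled within-group SD of the members' array mean was 0.422, so the simulated shares do not apply to the members. The alternatives changed the scaling (quantile, median, none), the filter, the probe rule, the variance model, the array weights, the arrays in the fit and a block by title code.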

Additional observations from a re-analysis of the deposited data

Results flagged for a closer look

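In young hippocampus, array Y stood far from the other 3 arrays of its group for mural genes. Tagln read 1.06 log2 on Y, with a gap to the nearest array of 0.870 of the group's range, and Vtn read 0.89 with a gap of 0.847. The mean of the 4 mural members was 0.89 on Y, with a gap of 0.951, all above Dixon's 95% critical value for 4 arrays. The members and their 2 means gave 48 groups of 4 arrays, of which these 3 passed, and chance passes about 1 in 20. Tagln and Vtn are in the mural mean, so the 3 values are not independent.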

How the results depend on the processing

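Of the single-member values, 432 kept their direction and their side of the threshold under the alternatives that kept or changed several arrays or settings, and 603 did so in the fits that left out 1 array. Genes called with age in frontal cortex, 97 in the report, numbered 47 with no filter on low signal, 45 with a stricter one, 29 with the 8 arrays of the region alone, 26 without young frontal cortex arrays Y and Z and 206 without old hippocampus arrays AH and AI. In hippocampus, 4 in the report, they numbered 8 with the stricter filter, 8 with array weights, 1 with the region alone and 2 without AH and AI. Between regions 2306 genes were called in young rats with array weights and 802 without Y and Z, beside 1392, and 1039 in old rats with that age alone, beside 1879. Members called between regions in old rats, 2 in the report, numbered 1 with no filter (Dcn), 1 with the stricter filter, 0 with array weights, 0 without AH and AI and 3 without Y and Z (with Pdgfrb). They stayed at 2 with the old arrays alone, where Vtn was gained and Loxl1 lost. One member more was called in 3 cases, beside 0 in the report: 1 with age in frontal cortex with the mean of probes (Bmp7) or without AH and AI (Loxl1), and 1 between regions in young rats with array weights (Vtn). The stricter filter tested 5 of the 8 members. Without Y and Z the members' median was -0.0093 for the difference of age effects and 0.12 for the region in young rats, beside -0.44 and -0.37.

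Signs turned in these values, none of them past the threshold. The mean of probes gave -0.062 for Pdgfrb with age in hippocampus and -0.21 for Vtn in the difference of age effects. For the region in old rats, array weights gave -0.17 for Ogn and -0.060 for Bmp7, and leaving out AH and AI gave -0.12 and -0.067. Leaving out Y and Z gave 0.12 for Acta2 with age in frontal cortex, and 0.18 for Tagln and 0.47 for Acta2 in the difference of age effects, where leaving out AH and AI gave 0.045 for Acta2. For the region in young rats it gave 0.13 for Tagln, 0.023 for Ogn, 0.11 for Pdgfrb and 0.20 for Acta2. In each case the cause was not tested.

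Leaving out 1 array at a time gave 1 to 7 called genes with age in hippocampus, 4 to 739 in frontal cortex and 0 to 1 for the difference of age effects. Members called ran from 0 to 3 with age in frontal cortex, 0 to 1 between regions in young rats and 0 to 3 in old rats. With age in hippocampus the difference ran from -0.56 to 0.14 for Tagln, -0.92 to 0.19 for Ogn, -0.47 to 0.016 for Dcn and -0.52 to 0.043 for Acta2. The difference of age effects ran from -0.45 to 0.18 for Acta2, -0.25 to 0.19 for Vtn and -0.055 to 0.20 for Pdgfrb. Between regions it ran from -0.0027 to 0.32 for Loxl1 and -1.10 to 0.0064 for Ogn in young rats, and from -0.041 to 0.16 for Bmp7 and -0.24 to 0.13 for Tagln in old rats.

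The title code as a replicate block left the members' calls at 0 with age in hippocampus and frontal cortex and 2 between regions in old rats, with a consensus correlation of 0.051 and 95 genes called with age in frontal cortex. Deviations of arrays with the same code correlated between regions at -0.17 (Z) to 0.28 (AF), with 3 of 8 codes (AA, AF and AI) correlating best with themselves, so the codes were not treated as pairs. The erythrocyte list (6 tested genes) did follow the code in old rats, at 1.18, -0.66, 0.12 and -0.14 in hippocampus and 1.48, -0.89, 0.21 and -0.03 in frontal cortex on AF, AG, AH and AI, which is a hint from the data and not from the labels. With 4 arrays per group and signals on an arbitrary scale, a change of 0.5 log2 in genes drawn at random was often missed in simulation. Those shares do not apply to the members, whose SE with age ran from 0.15 (Pdgfrb) to 0.59 log2 (Ogn). Bmp7, Lum and Aldh1a2 lay at or under the intensity minimum in some or all groups, so small differences in them were not detectable here.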

Other observations

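Several genes of the marker and pathway lists differed between regions at both ages. The counts below include the members, and the genes named after the counts are not members. Of all tested genes, 13.8% were called between regions in young rats and 18.7% in old rats. Of 29 meningeal fibroblast genes, 1 was called higher in hippocampus and 2 lower in young rats, and 3 and 1 in old rats. The member Dcn is 1 of those 3. Spp1 is 1 of the 2 called lower in young rats. It passed the filter through young frontal cortex array AA alone, so its call is tied to the filter. Of 20 smooth muscle genes, 1 was called in each direction at both ages. Of 16 pericyte genes, 3 were called lower in young rats and 5 in old rats. Of 26 BMP pathway genes, 2 were called higher and 9 lower in young rats, and 4 and 6 in old rats. The insulin-like growth factor binding protein Igfbp6 was lower in hippocampus than in frontal cortex by 1.41 log2 in old rats and by 1.33 in young rats, while the proteolipid Nnat, neuronatin, was higher by 1.07 in old and by 0.82 in young rats (adjusted p from 0.000645 to 0.0111 by limma, n = 4 per group). Of the elastic fibre genes, Fbn1, fibrillin 1, was higher in hippocampus by 1.29 in old and 0.91 in young rats, and Fbln2, fibulin 2, by 0.70 and 0.73. The pericyte list held Art3 and Rgs4, both lower in hippocampus, with differences of -0.98 and -1.33 in old rats and -1.35 and -1.66 in young rats. Rgs4 and Nnat are also expressed by neurons, and Sncg, of the smooth muscle list and also a neuronal gene, was higher in hippocampus by 1.71 in old and 1.60 in young rats. Of the retinoic acid list, Aldh1a1 was higher in hippocampus by 1.00 in old and 0.99 in young rats, and the retinoic acid hydroxylase Cyp26a1 was lower, at -1.67 and -1.78. The BMP pathway held the BMP-binding protein Bmper at -1.52 in old and -1.31 in young rats and the ligand Gdf10 at 1.15 and 0.94. All of these passed an adjusted p of 0.05 in both ages.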
